A study of Mus musculus with 6 samples.

Results

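Choroid plexus epithelial-like cells made up 174 of the 39642 cell barcodes that passed quality control in a droplet single-cell RNA sequencing experiment on mouse brain, or 0.439% (exact binomial 95% interval 0.376 to 0.509%). They were chosen by measured shares of the unique molecular identifiers (UMIs, each standing for 1 counted RNA molecule) of a barcode: at least 5% of its UMIs on Ttr, which encodes transthyretin, and under 1% on the sum of 6 microglial genes, Cst3, C1qa, C1qb, C1qc, P2ry12 and Tmem119. Barcodes entered with more than 200 genes detected and under 5% of UMIs on the 13 mitochondrially encoded genes, and the other 39468 barcodes that met these limits served as the comparison. Since the same counts chose the cells, every difference from the other barcodes is given as a description, with no test. The whole matrix held 40411 barcodes and 31053 genes.

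The experiment used female SCID mice, which lack T and B cells, aged 8 weeks when 50000 human U87 glioma cells were injected into the brain (the age field of the labels reads 6 to 8 weeks). In 3 mice the tumor cells were U87 IL-33, made to overexpress interleukin-33, and the hemispheres were taken after 3 weeks. In the other 3 mice they were U87 pcDNA, carrying the control vector, and the hemispheres were taken after 6 weeks, so that time and IL-33 cannot be told apart. From every mouse the tumor-bearing right hemisphere was dissociated, passed through a percoll gradient and sorted for CD45, the leukocyte surface protein that Ptprc encodes. Each barcode of the deposited matrix ends in a suffix from 1 to 6, and the labels tie no suffix to a mouse. The number of barcodes with each suffix equals the number of cells of 1 of the 6 libraries in the study's sequencing summary, which names the tumor group of each, so the suffixes can be taken as 6 libraries. Groups were taken from the sample labels alone, so that match was not used here and the 2 tumor groups were not compared. Values are given by suffix, and the intervals below cover counting error only.

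The choroid plexus hangs in the brain ventricles and consists of a vascular stroma covered by a single epithelial layer. That epithelium makes cerebrospinal fluid by moving sodium, chloride, bicarbonate and water from blood to ventricle, closes the blood to cerebrospinal fluid barrier with tight junctions, and secretes carrier and signaling proteins, of which transthyretin is by far the most abundant. Its ventricular surface carries microvilli and tufts of cilia. Its cells are not leukocytes and do not make CD45.

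The cells were found with every suffix. Suffixes 1 to 6 held 58, 33, 5, 16, 36 and 26 of them. As a share of the barcodes that passed quality control, this was 0.746% with suffix 1 (95% interval 0.567 to 0.964%), 0.326% with suffix 2 (0.225 to 0.458%) and 0.176% with suffix 3 (0.0573 to 0.411%). It was 0.256% with suffix 4 (0.147 to 0.416%), 0.547% with suffix 5 (0.384 to 0.757%) and 0.426% with suffix 6 (0.278 to 0.624%). Suffix 1 had the highest and suffix 3 the lowest of these shares. Among barcodes of sequences that occurred with 1 suffix only, the shares with suffixes 1 to 6 were 1.07, 0.308, 0.223, 0.156, 0.718 and 0.459%, so that suffix 1 was again highest but suffix 4 lowest. The depth of the whole matrix was 105560763 UMIs, between 9745192 UMIs with suffix 3 and 24393841 with suffix 2.

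Barcodes of different suffixes were not independent of each other. Of 29579 distinct 16-base barcode sequences, 3890 occurred with more than 1 suffix, and they accounted for 14722 barcodes or 36.4% of the matrix. Suffixes 1 and 2 shared 3428 sequences, and the ratio of UMIs between the paired barcodes was nearly constant, with a median log2 ratio of -0.40 and quartiles of -0.44 and -0.36. Among the choroid plexus-like cells, 53 (30.5%) carried a sequence also present with another suffix, against 36.7% of the other barcodes. There were 137 distinct sequences among the 174 cells, and 12 sequences were choroid plexus-like with more than 1 suffix, covering 49 barcodes. Within such a sequence the Ttr share differed between suffixes by at most 4.91 percentage points, while the 12 sequences ranged from 13.5 to 63.6%. The cause was not tested. Without every shared sequence 121 cells were left, at 46, 20, 5, 7, 23 and 20 with suffixes 1 to 6. Where a printed ratio to the other barcodes moved by over 1.5 times with only those cells, or with 1 suffix left out, the other value stands beside it.

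**Figure D1:**
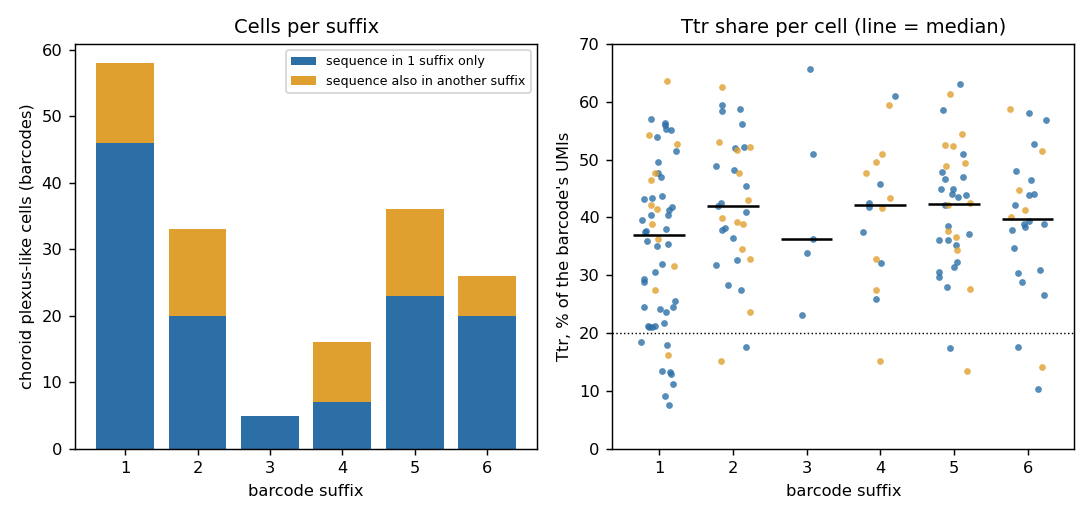
Left, number of choroid plexus-like barcodes for each barcode suffix, split by whether the 16-base sequence also occurs with another suffix. Right, Ttr as a percent of the UMIs of each cell, with the median as a line: suffix 1 holds the most cells (58), suffix 3 the fewest (5), and the medians lie between 36.3 and 42.3%.

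The shares that chose the cells left wide gaps for Ttr and none for the microglial genes. Ttr took a median of 40.0% of the UMIs of a cell, from 7.52 to 65.6%. The 3 lowest values were 7.52, 9.21 and 10.4%, and among the 547 other barcodes under the microglial limit the highest Ttr share was 0.165%, so any limit between these selects the same cells. The microglial share had a median of 0.405%. Its highest value among the cells was 0.985% and its lowest value among excluded barcodes with Ttr at 5% or more was 1.01%. In the cells this share was mostly Cst3, which is also listed below among the secreted proteins of the choroid plexus. Cst3 made up 89.3% of the UMIs on the 6 genes in the cells and 69.6% in the other barcodes. The cells had a median of 1070.5 UMIs (500 to 9213) and 472.5 detected genes (202 to 2312), against medians of 2476 UMIs and 1118 genes in the other barcodes. After every barcode was thinned to 500 UMIs the medians were 242 and 317 genes.

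**Figure D2:**
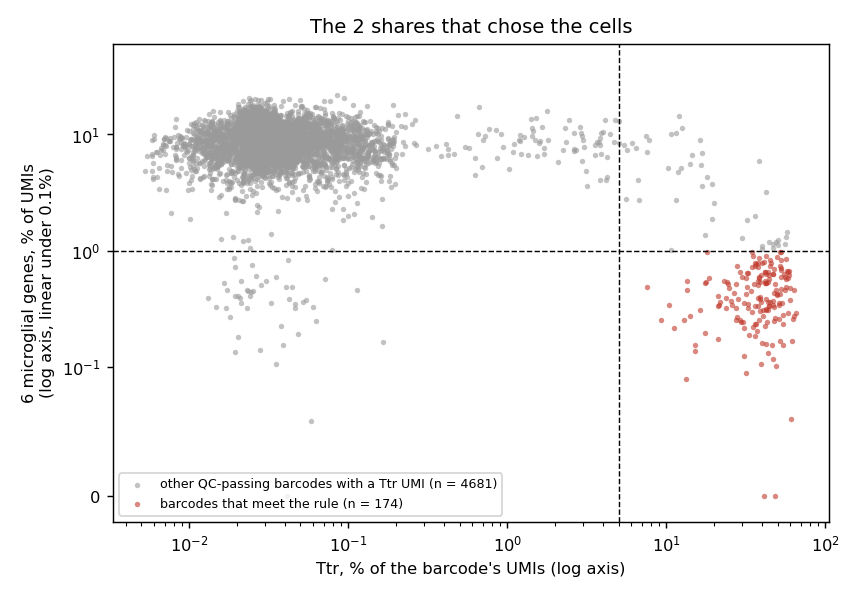
Each point is a barcode that passed quality control and held a Ttr UMI, with the share of its UMIs on Ttr (x, log axis) against the share on the 6 microglial genes (y, log axis, linear under 0.1%). The 174 cells that met both limits (dashed lines, 5 and 1%) stand at the lower right, apart from the barcodes with under 0.2% Ttr and joined to those above the microglial limit.

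Ttr chose the cells, so 11 other markers of choroid plexus epithelium were looked up. Each had UMIs in the cells, but so did 9867 of all 31053 genes. Presence alone therefore does not tell cell types apart, and levels are given below. The markers were Enpp2, Clu, Igfbp2 and Sostdc1, then Folr1, Kcnj13, Clic6, Aqp1, Otx2, Kcne2 and Prlr. Of the first 4, all had a UMI in 110 cells, 3 in 45, 2 in 17 and 1 in 2 cells. Levels are given below as CPM, a gene's UMIs added up across the cells, divided by the total of those cells and multiplied by 1000000, where 1 UMI among the 174 cells is worth 2.53 CPM and a count of 0 allows up to 7.59 CPM (3 UMIs). In the other barcodes the same limit is 0.0288 CPM. Reads came from the 3′ ends of transcripts, so a value refers to a gene and not to an exon. Positions are those of mm10.

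Against the other barcodes, 4353 genes had enough UMIs to be compared (at least 10 expected in the cells). Of these, 1000 (23.0%) were at least 2-fold higher in the choroid plexus-like cells and 281 (6.46%) at least 10-fold higher, while 1741 (40.0%) were at least 2-fold and 788 (18.1%) at least 10-fold lower. Of the 281 genes, 269 were at least 10-fold higher with each of the 4 suffixes that held 20 or more cells. Of the 788, 196 had no UMI in the cells, and 702 were past 10-fold with the cells set at no less than 3 UMIs. Without suffix 1, which held the most cells, 183 genes were at least 10-fold higher and 553 lower. A gene met the minimum through whichever side had it high, so counts over a list describe only the genes that met it. The median log2 ratio over all compared genes was -0.44. Ttr alone took 37.7% of the UMIs of the cells, which lowers the CPM of all other genes, and the 6 microglial genes took 8.76% of those of the other barcodes. With these 7 genes out of the totals the median rose by 0.82 to 0.38, every remaining ratio grew by 1.47-fold, and the 2-fold differences went from 36.5% higher to 56.4% higher (1368 genes higher and 1056 lower of 3713). Ratios below use all UMIs and are to be read against a median of -0.44 on the log2 scale.

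Secreted proteins were among the most abundant products. Of 25 genes listed for the choroid plexus secretome, 20 could be compared, 13 were at least 10-fold higher and 6 at least 2-fold lower, with a median log2 ratio of 8.93. The 6 lower genes include Cst3, which the selection itself held low. Ttr, which carries thyroid hormone and the retinol-binding protein, was at 377105 CPM against 274 CPM in the other barcodes. Enpp2 (chr15:54838901-54952892) encodes autotaxin, the secreted enzyme that makes lysophosphatidic acid, and was the second most abundant gene. Its level was 16835, 19519, 21358, 16176, 13600 and 17289 CPM with suffixes 1 to 6, against 14.8 CPM in all other barcodes. All 6 levels lay far above those of the other barcodes, and the ratio over all cells was 1143 (95% interval 1081 to 1209), or 1752 without suffix 1, where the other barcodes held the most Enpp2.

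Clu (chr14:65968483-65981547), which encodes the extracellular chaperone clusterin, was at 2565, 3221, 4140, 2130, 2804 and 2791 CPM with suffixes 1 to 6, against 2.27 CPM in the other barcodes (ratio 1220, 1059 to 1411). Sostdc1 (chr12:36314139-36318452), a secreted antagonist of BMP and Wnt signaling, was at 2843, 3197, 3154, 3109, 2208 and 2428 CPM against 2.29 CPM (ratio 1183, 1027 to 1367). Igfbp2 (chr1:72824503-72852474), a binding protein of insulin-like growth factors, was at 1727, 1611, 2826, 1324, 1385 and 1474 CPM against 1.86 CPM (ratio 871, 741 to 1028). With the microglial limit at 0.5%, where the cells then excluded count among the other barcodes, the ratios were 400 for Enpp2, 429 for Clu, 406 for Sostdc1 and 333 for Igfbp2. For each of these genes even the lowest suffix of the cells stood far above the other barcodes. For Enpp2, Clu and Igfbp2 the highest value belonged to suffix 3, which held 5 cells.

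Ptgds, which encodes the prostaglandin D synthase of cerebrospinal fluid, was at 1827 CPM against 1.55 CPM (ratio 1181, 994 to 1409), and 1500015O10Rik, which encodes the secreted peptide augurin, at 2138 against 1.5 CPM (ratio 1426, or 2522 without suffix 1). Kl, which encodes Klotho, a membrane protein whose ectodomain is shed into the cerebrospinal fluid, was at 359 CPM against 0.336. Cpe, a carboxypeptidase that trims peptide hormones, was at 529 against 0.721 CPM, and Spint2, a membrane-bound inhibitor of serine proteases, at 1025 against 3.26 CPM. The secreted genes at least 2-fold lower in the cells were Cst3, Apoe, Trf, Sparc, B2m and Serpinf1. Cst3 was 1 of the 6 genes that the selection held together under 1% of UMIs, so its low level was set by the selection. Apoe, the lipid carrier of the brain, was still the fifth most abundant gene at 5213 CPM against 14878 CPM in the other barcodes, and lower with each of the 6 suffixes. Igf2, Cp and Penk had no UMI. Because Cst3 and Apoe dominated the other barcodes, the summed secreted list was 40658 CPM in the cells and 83509 CPM in the others, a ratio of 0.487. It became 1.64 with Cst3 out of the list and all UMIs in the totals, and 2.42 with the 7 genes of the selection out of both the list and the totals.

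Retinoid and thyroid hormone carriers accompanied transthyretin. Rdh5, a retinol dehydrogenase, was at 423 CPM against 2.32 CPM. The 4 genes of this list that could be compared, of which 1 was Ttr itself, were at least 10-fold higher. Stra6, the cell surface receptor for retinol-binding protein, rested on 12 UMIs in the cells and 2 in the others (ratio 1580, or 2483 without suffix 2 and 2732 without suffix 3). Rdh10, another retinol dehydrogenase, had 7 UMIs and a ratio of 2.55, which turned to 0.488 without suffix 6 and was 3.70 without suffix 1. Rbp4, Crabp2, Lrat and Dio2 had no UMI.

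Genes of ion and water transport followed. Of 34 genes listed, 28 had a UMI, 19 could be compared, 14 were at least 10-fold higher and 1 at least 10-fold lower, with a median log2 ratio of 8.87. Their summed level was 6570 CPM in the cells and 519 CPM in the others, and between 6046 and 6899 CPM across the 6 suffixes. Car2 (chr3:14886273-14900770), a cytosolic carbonic anhydrase that supplies bicarbonate, was the most abundant at 1394, 1082, 789, 979, 1052 and 1219 CPM with suffixes 1 to 6, against 3.27 CPM (ratio 375, 326 to 432, or 614 without suffix 6). Fxyd1, the Na,K-ATPase regulator phospholemman, was at 1205 CPM against 1.28 CPM.

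Kcnj13 (chr1:87386363-87394729), the potassium channel Kir7.1 of the ventricular membrane, was at 826, 1058, 1052, 576, 631 and 668 CPM with suffixes 1 to 6, against 0.865 CPM in the others (ratio 901, 710 to 1153). After thinning to 500 UMIs it was detected in 32.2% of the cells and in 0.0380% of the other barcodes, and unthinned in 46 of the 55 cells with 2000 UMIs or more. Kcne2, an accessory subunit of voltage-gated potassium channels, was at 245 CPM against 0.192 CPM, and the intracellular chloride channel protein Clic6 at 504 against 0.279 CPM (ratio 1807). Atp1b1, a beta subunit of the Na,K-ATPase, was at 554 CPM against 2.85 CPM (ratio 195). The water channel Aqp1 rested on 25 UMIs, or 63.3 CPM against 0.0865. The Na,K,2Cl cotransporter Slc12a2 was at 45.6 against 20.8 CPM (ratio 2.19) and its activating kinase Stk39 at 456 against 0.567 CPM. The bicarbonate transporters Slc4a10 (26 UMIs) and Slc4a5 (19 UMIs) were at 65.8 and 48.1 CPM, against 0.0384 CPM each in the others (the ratio of Slc4a10 was 1711, or 1015 without suffix 6). The cation channel Trpm3 was at 347 CPM against 0.279 CPM. Kcnq1 and Kcna3, channels that Kcne2 is known to join, had no UMI, and neither did Cftr, Scnn1a and Car4.

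**Figure D3:**
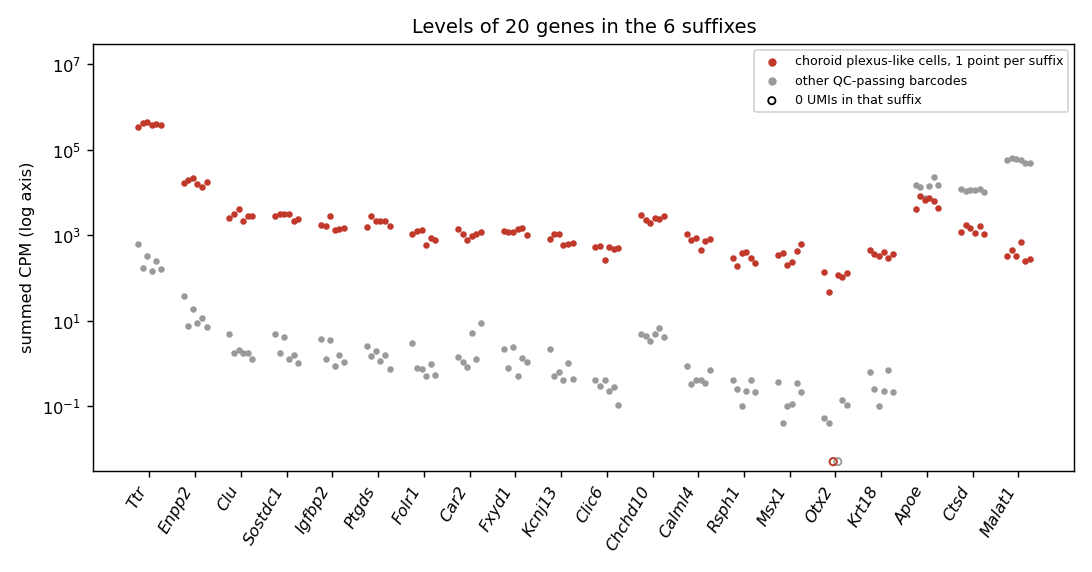
Summed CPM (log axis) of 20 genes for each of the 6 barcode suffixes, in the choroid plexus-like cells (red) and in the other barcodes that passed quality control (gray); open points stand for 0 UMIs. For the 17 genes from Ttr to Krt18 every red point with a UMI lies above every gray point of the same gene, and for Apoe, Ctsd and Malat1 every red point lies below the gray point of the same suffix.

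Transporters of solutes, vitamins and metals were fewer. Of 40 listed genes, 33 had a UMI, 16 could be compared, 9 were at least 10-fold higher and 3 at least 2-fold lower, with a median log2 ratio of 3.92. Folr1 (chr7:101858331-101870788), the receptor that carries folate across this epithelium, was the most abundant at 1048, 1274, 1314, 576, 859 and 767 CPM with suffixes 1 to 6, against 1.12 CPM (ratio 855, 693 to 1061, or 1296 without suffix 1). The folate carriers Slc46a1 and Slc19a1, which other cell types use as well, were close to the other barcodes at 35.4 against 60.2 CPM and 40.5 against 22.0 CPM. Slco1c1, a thyroid hormone transporter, was at 182 CPM against 0.173 CPM, Slc16a8, a lactate transporter, at 127 against 0.221 CPM, and Steap1, of a family of metalloreductases, at 172 against 0.135 CPM (ratio 1279, or 2732 without suffix 1). Slc22a17, the lipocalin-2 receptor, was 12.7-fold higher at 542 CPM and the copper importer Slc31a1 4.41-fold higher at 230 CPM. The endocytic receptor Lrp2, the efflux pumps Abcb1a and Abcg2 and the iron exporter Slc40a1 had no UMI.

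Every ciliary gene that could be compared was higher in the cells. Of 55 genes, 43 had a UMI and 20 could be compared, and all 20 were at least 2-fold higher, 17 of them at least 10-fold, with a median log2 ratio of 8.23. The list summed to 5545 CPM in the cells and 344 CPM in the others, and to 6352, 5360, 4074, 4030, 4609 and 5337 CPM in the cells with suffixes 1 to 6. Its most abundant gene was Dynll1, a dynein light chain used in all cells, at 1232 against 185 CPM (ratio 6.68). Calml4 (chr9:62858080-62875921), a calmodulin-like protein also known from microvilli, was at 1067, 769, 854, 461, 719 and 806 CPM with suffixes 1 to 6, against 0.519 CPM (ratio 1702, 1275 to 2311). Rsph1, a radial spoke head protein, was at 273 CPM against 0.279 CPM, Tekt1, a filament protein of axonemal microtubules, at 162 against 0.0673 CPM, and Dynlrb2, a dynein light chain of ciliated cells, at 172 against 0.0961 CPM. Pifo, which acts at the ciliary base, was at 134 against 0.0769 CPM and Ccdc113, of ciliary satellites and the axoneme, at 129 against 0.0481 CPM. With so few UMIs in the other barcodes 1 suffix can move such ratios: that of Ccdc113 was 2685, or 7284 without suffix 1, that of Tekt1 2407, or 4439 without suffix 2, and that of Pifo 1744, or 2649 without suffix 5. The intraflagellar transport gene Ift20, which most cells use, was 4.42-fold higher.

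Taking the 17 ciliary genes at least 10-fold higher together, 156 of the 174 cells (89.7%, 95% interval 84.1 to 93.8%) had a UMI of at least 1 of them, and 54 of the 55 cells with 2000 UMIs or more. In the other barcodes, at their greater median depth, the share was 11.3%. These 17 genes were picked for being high in the same cells, so both shares are a description. Calml4 alone had a UMI in 63.2% of the cells, or 37.9% after thinning. The transcription factor Foxj1, which drives motile ciliogenesis, rested on 14 UMIs (35.4 CPM against 0.0384, ratio 921, or 3009 without shared sequences) and had none with suffixes 2, 3 and 4. Ccno, Mcidas and Myb, regulators of multiciliated cells, had no UMI, and neither did Ccdc153, Tmem212, Ccdc40, Dnah5, Ift172, Arl13b, Bbs1 and Deup1.

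The promoter windows of ciliary genes were compared with those of all genes, since RFX factors, which act on ciliary genes, bind sites that contain GTTGCC. Windows were those of RefSeq (GRCm38.p6), 250 bases before to 50 after each start, and letters were sought on both strands. GTTGCC stood in 12.5% of all 32851 windows and in 12.4% of the 4489 windows of the genes compared (3476 of 4353 genes matched). It stood in 18.1% of the 287 windows of the genes at least 10-fold higher (223 of 281 matched) and in 30 of the 56 windows (53.6%) of the ciliary list (50 of 55 matched). For the 17 ciliary genes at least 10-fold higher, 16 matched and 10 of 21 windows (47.6%) held it. TAATCC, the core letters bound by OTX2, stood in 7.06% of all windows and in 9.06% of those of the genes at least 10-fold higher, and TGTTTAC, bound by forkhead factors, in 3.65 and 1.74%. These are matches of letters and say nothing of binding. The 3 stretches below show the 150 bases before the start of ciliary genes whose level is given above, with capitals for GTTGCC or its reverse complement GGCAAC, and for GGATTA, the reverse complement of TAATCC.

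Tekt1, chr11:72361883-72362032, minus strand: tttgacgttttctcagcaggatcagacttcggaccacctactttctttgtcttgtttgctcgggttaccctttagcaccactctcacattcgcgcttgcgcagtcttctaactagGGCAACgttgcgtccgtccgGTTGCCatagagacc

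Ccdc113, chr8:95533950-95534099, plus strand: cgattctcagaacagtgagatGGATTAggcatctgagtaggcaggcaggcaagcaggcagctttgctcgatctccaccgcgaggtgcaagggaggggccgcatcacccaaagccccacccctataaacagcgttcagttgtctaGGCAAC

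Dynlrb2, chr8:116504865-116505014, plus strand: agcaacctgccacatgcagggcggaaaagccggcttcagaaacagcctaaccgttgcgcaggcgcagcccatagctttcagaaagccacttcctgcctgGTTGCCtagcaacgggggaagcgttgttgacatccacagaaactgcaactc

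In Tekt1 both copies lay within 35 bases of the start, in opposite directions, and a second window of that gene held none of the 3 motifs. In Ccdc113 the GTTGCC letters began 6 bases before the start on the reverse strand, and in Dynlrb2 51 bases before it.

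Transcription factors and other regional identity genes were detected sparsely. Of 26 genes listed, 11 had a UMI, and all 7 that could be compared were at least 2-fold higher, 6 of them at least 10-fold. Msx1 (chr5:37820485-37824583), a homeobox gene of the dorsal midline, was at 345, 385, 197, 230, 438 and 609 CPM with suffixes 1 to 6, against 0.192 CPM (ratio 2185, 1370 to 3670). Msx1 was detected in 78 of the 174 cells (44.8%), and in 43 of the 55 deeper cells. Otx2 (chr14:48657677-48673819), the homeobox gene that choroid plexus identity requires, rested on 45 UMIs, at 136, 48.1, 0, 115, 105 and 128 CPM with suffixes 1 to 6. Otx2 was detected in 33 of the 174 cells (19.0%), and in 21 of the 55 deeper cells. The 0 of suffix 3 came from 5 cells. Hopx, a homeodomain protein that does not bind DNA, was the most abundant of the list at 929 CPM against 4.0 CPM. The cell cycle inhibitor Cdkn1c was at 681 against 12.4 CPM, Id3, a target of BMP signaling, at 225 against 4.16 CPM, and the dorsal neural gene Zic1 at 58.2 against 0.0481 CPM. The Hox genes listed (Hoxa2, Hoxa3, Hoxa5, Hoxb3 and Hoxb5) had no UMI.

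Junctional genes were covered thinly. Of 26 genes, 19 had a UMI and 6 could be compared, of which 3 were at least 10-fold higher and 2 at least 2-fold lower. The epithelial keratins Krt18 and Krt8 were at 390 against 0.356 CPM and 149 against 0.394 CPM, and Ezr, which anchors microvilli to actin, at 347 against 21.6 CPM. Cldn2, the claudin of leaky epithelia, rested on 17 UMIs (43.0 CPM, against 3 UMIs in the others, ratio 1492, or 5099 without suffix 1), and Cldn3 on 14 UMIs. Cdh1, Cdh2, Cldn10, Cldn12 and Cldn19 had no UMI.

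Most of the receptors and immune genes that could be compared stood below the other barcodes. A gene low in the cells met the minimum through its level in the other barcodes. Of 28 hormone and cytokine receptors, 13 could be compared, 2 were at least 10-fold higher and 11 at least 2-fold lower (median log2 ratio -3.80). The 2 higher receptors were the prolactin receptor Prlr, at 121 against 0.221 CPM (ratio 549, or 826 without suffix 1), and the serotonin receptor Htr2c, at 58.2 against 0.0481 CPM. Il1rl1, which encodes the IL-33 receptor, had no UMI in the cells, and neither did Il33, Il6, Cxcl1, Cxcl10 and C3. Only Cxcl10 among them met the minimum, so for the rest a count of 0 shows no difference from the other barcodes. Of 29 cytokine, complement and interferon response genes, 14 could be compared. Of these, 9 were at least 2-fold lower, 7 of them at least 10-fold, and 2 at least 10-fold higher (median log2 ratio -3.32). Vcam1 (chr3:116109949-116129688), an adhesion molecule for leukocytes, was at 241, 337, 460, 173, 280 and 98.3 CPM with suffixes 1 to 6, against 5.84 CPM in the others (ratio 38.5, or 60.4 without shared sequences). The complement inhibitor Cd59a was at 162 against 2.07 CPM.

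Genes of mitochondrial energy supply differed by where they are encoded. Of 40 nuclear-encoded genes, 39 could be compared, 38 were at least 2-fold and 11 at least 10-fold higher, with a summed level of 47797 CPM against 7260 CPM (6.58-fold). Chchd10 (chr10:75933130-75937747), a protein of the mitochondrial intermembrane space, was at 2923, 2236, 1906, 2475, 2454 and 2870 CPM with suffixes 1 to 6, against 4.72 CPM (ratio 574, 516 to 640). The cytochrome oxidase subunit Cox8a was at 2728 against 282 CPM and the ATP synthase subunit Atp5g1 at 2677 against 144 CPM. Of the 13 mitochondrially encoded genes, 11 could be compared, 5 were at least 2-fold and none 10-fold higher, with a sum of 28313 against 14864 CPM (1.90-fold). That sum is bounded in every barcode by the limit of 5%, and the median share was 2.96% in the cells and 1.31% in the others.

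Of 23 metallothionein and oxidative stress genes, 22 could be compared, 17 were at least 2-fold and 7 at least 10-fold higher. Mt3, a metallothionein of the nervous system, was at 1321 CPM against 0.759 CPM (ratio 1740), while Mt1 was at 582 against 497 CPM (ratio 1.17). Gpx4, the peroxidase that reduces lipid peroxides, was 8.56-fold higher at 2141 CPM, Cryab, a small heat shock protein, 90.9-fold at 582 CPM and Gsta4, which conjugates lipid aldehydes, 175-fold at 461 CPM.

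**Figure D4:**
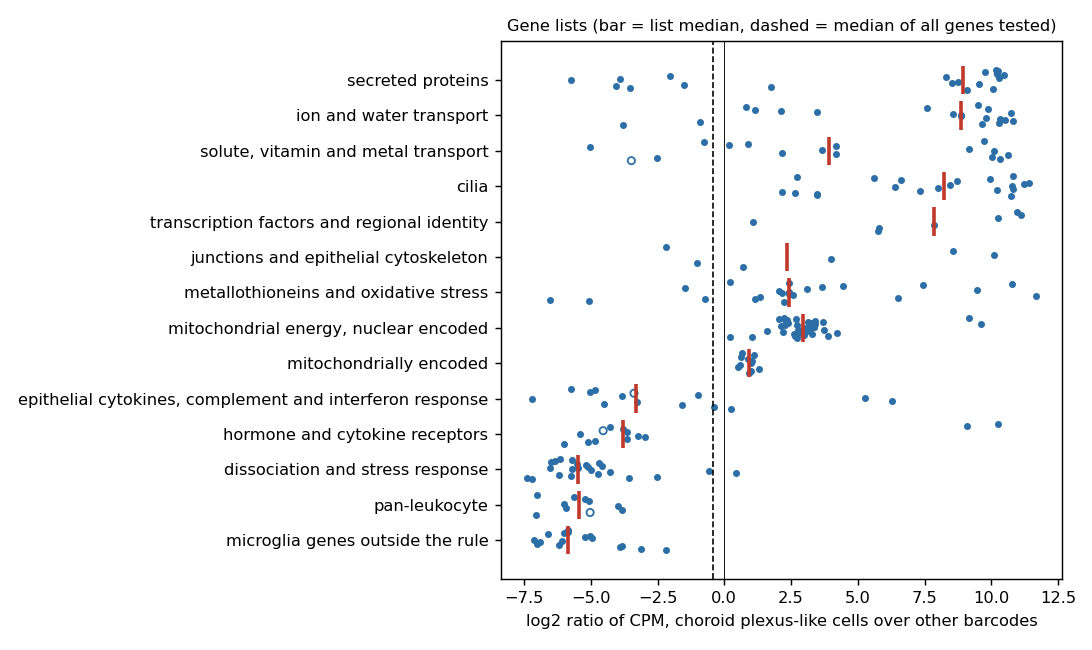
Log2 ratio of CPM, choroid plexus-like cells over the other barcodes, for the genes of 14 lists with enough UMIs to be compared (points; open points had 0 UMIs in the cells and are placed at 3 UMIs), with the list median (red bar) and the median of all 4353 genes (dashed, -0.44). The medians of secreted, ion transport and ciliary genes lie above 8, those of the leukocyte and stress lists below -5.

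Leukocyte RNA was low in these sorted cells. Ptprc (chr1:138062861-138175708) had 1 UMI in the 174 cells, or 2.53 CPM against 328 CPM in the other barcodes. That was 1 of 174 cells (0.575%, exact 95% interval 0.0145 to 3.16%) against 48.1% of the others. After thinning to 500 UMIs it was detected in 0 of 174 cells, which allows a share of up to 1.72% of cells with a UMI at that depth (3 counts), and in 14.1% of the others. Of 10 pan-leukocyte genes, 9 had a UMI (Lcp1 had none), all 10 were at least 10-fold lower, and their sum was 132 against 5685 CPM, led by Cd53. By suffix that sum was 136, 24.0, 131, 230, 105 and 167 CPM in the cells. Of 16 microglial genes outside the selection, all had a UMI, all were at least 2-fold lower and 14 at least 10-fold, at a sum of 3062 against 58088 CPM, led by Ctsd at 1301 CPM. Of 10 border macrophage genes only Stab1 had UMIs, at 7.59 CPM, and 3 of 12 genes of other leukocytes had UMIs.

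Markers of other ventricular and brain cell types were detected in part. Of 15 ependymal genes 10 had a UMI, 5 could be compared, and of these 4 were at least 10-fold higher and 1 at least 2-fold lower. The list summed to 870.5 CPM against 71.7 CPM, led by Pltp, and several of its genes (Foxj1, Tekt1 and Dynlrb2) also stand in the ciliary list, while Tmem212, Ccdc153, Sntn, S100b and Nnat had no UMI. Of 13 endothelial genes 5 had a UMI, at a sum of 536.5 CPM against 29.5 CPM, while Cldn5, Pecam1, Flt1, Cdh5 and Kdr had none. Both that could be compared were at least 10-fold higher, Pltp at 349 CPM and Igfbp7 at 142 CPM among them. Of 14 fibroblast and mural genes 5 had a UMI at a sum of 88.6 CPM against 3.42 CPM, with Col1a1, Col3a1, Dcn, Lum and Pdgfrb at none. Of 10 astrocyte genes 5 had a UMI at a sum of 316 CPM against 146 CPM, led by Slco1c1, with Aqp4, Gfap, Slc1a2, Slc1a3 and Gja1 at none. Of 10 oligodendrocyte genes 3 had a UMI at a sum of 22.8 CPM against 102 CPM, and none of 10 neuronal genes had one. Of 6 erythrocyte genes, Hba-a2 and Hba-a1 had 8 and 7 UMIs, and the list summed to 38.0 CPM against 0.192 CPM.

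The nuclear RNA Malat1 (chr19:5795690-5802672), a long noncoding RNA retained in the nucleus, was among the genes with the lowest ratios. It was at 321, 457, 329, 691, 245 and 285 CPM with suffixes 1 to 6, and at 56101 CPM in the other barcodes, 169-fold higher (95% interval 143 to 202). Of the 174 cells 98 had no Malat1 UMI, including 21 of the 55 with 2000 UMIs or more, against 97 of the 39468 other barcodes. Neat1, also nuclear, had 2 UMIs in the cells (148-fold lower than the others, 40.9 to 1221; a ratio of 0.00676, or 0.00378 without suffix 2), and Xist, retained on the inactive X chromosome, 9 UMIs (63.5-fold lower, 33.4 to 139). Kcnq1ot1, which was looked up after Malat1 and Neat1 had been seen, had none in the cells and 51.4 CPM in the others. The Malat1 ratio of 0.00591 lay between 0.00493 and 0.0130 over the settings tried, the highest with the microglial limit raised to 2%. Among 24 genes of the dissociation and stress response, which include Malat1 and Neat1, 21 of 23 compared were at least 2-fold lower, Jun at 152 against 12181 CPM and Fos at 147 against 10378 CPM, while Hspa8 (ratio 0.668) and Hsp90aa1 (ratio 1.37) were within 2-fold.

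Beside the listed genes, those with the highest ratios were named by rule, as the 25 genes of at least 50 CPM with the largest CPM ratio that were higher with each of the 4 larger suffixes. They had ratios from 1711 to 10794 and between 1 and 79 UMIs in the other barcodes. The highest belonged to 4833427G06Rik and Pcsk2, a proprotein convertase, each with 1 UMI in the others, so that these ratios are known only loosely (4833427G06Rik was at 10794, or 2901 without suffix 6, and Pcsk2 at 7372, or 1943 without suffix 1). The set included Nme5 (ratio 3306), a ciliary protein of the nucleoside diphosphate kinase family, and Tekt1, Ccdc113, Dynlrb2 and Pifo from the ciliary list. It also held Msx1, Otx2, Clic6, Slc4a10 and Mt3, Gstm2, a glutathione transferase, Hspb8, a small heat shock protein, Sncg, which encodes gamma-synuclein, Prelp, a matrix protein, and Mapk4, an atypical kinase. The other members were Gm19935, Gm29538, 1700016K19Rik, 2900040C04Rik, Vat1l, Dcaf12l1, Prr32 and Serpinb1b. At the other end, the 10 genes of at least 500 CPM in the other barcodes with the lowest ratios were Klf6, Mef2c, P2ry13, Malat1, Neat1, Gpr34, Rnase4, Gatm, Selplg and Il1a. Of these, Klf6, P2ry13, Gatm, Rnase4 and Il1a moved by over 1.5 times without suffix 1, with none above a ratio of 0.0143.

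The cells were not uniform, and they were divided here by the Ttr share itself. The Ttr share is a value that chose the cells, and the division at 20% was drawn after the data had been seen, so it is a description. Under 20% lay 17 cells (13 distinct sequences, 9 with suffix 1, 2 with suffix 2, none with suffix 3, 1 with suffix 4, 2 with suffix 5 and 3 with suffix 6), and 157 cells lay at or above it. CPM for this comparison was computed over UMIs other than Ttr, 35316 in the low and 210823 in the high cells. Of 653 genes with enough UMIs, 62 (9.49%) were at least 2-fold lower in the low cells and 27 (4.13%) at least 2-fold higher.

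Secreted proteins were lower in the low-Ttr cells. Of the 15 genes of that list compared, 12 were at least 2-fold lower and none higher. The whole list, with the genes not compared, summed to 17103 against 73341 CPM, or 4.29-fold lower. Enpp2 was at 5040 CPM in the low and 30855 CPM in the high cells, a 6.12-fold difference. Cell by cell, Enpp2 took 0.163 to 0.966% of the UMIs other than Ttr in the 17 low cells (median 0.527%) and 0.665 to 10.8% in the 157 high cells (median 3.13%). These ranges overlapped in 3 of the 157 high cells. Clu (6.15-fold), Sostdc1 (6.23-fold) and Igfbp2 (6.16-fold) differed by nearly the same factor over all cells, and Apoe by 3.71-fold. Without suffix 1 the differences were 11.1-fold for Sostdc1, on 6 UMIs in the low cells, and 3.52-fold for Igfbp2, on 11.

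Genes of ion and water transport were divided. Of the 8 compared, 3 were at least 2-fold lower in the low cells and none 2-fold higher. The whole list, with the genes not compared, summed to 6626 against 11204 CPM, or 1.69-fold lower. Kcne2, Trpm3 and Clic6 were within 2-fold, with ratios of low to high cells of 0.611, 0.679 and 1.32. Both transporters of solutes, vitamins and metals that could be compared were at least 2-fold lower. Kcnj13 was 7.20-fold lower (7 UMIs in the low cells), Folr1 5.62-fold (11 UMIs), Slc22a17 7.0-fold (5 UMIs) and Atp1b1 18.2-fold, on 2 UMIs in the low and 217 in the high cells (ratio 0.0550, 0.00662 to 0.201). Some genes were chosen for naming after their low values were seen and stand for no group. Of these, Pdia3, Calr and Hspa5, which encode folding proteins of the endoplasmic reticulum, were 10.8-fold, 9.38-fold and 5.49-fold lower, and Tmed10 and Sec62, of the secretory pathway, 6.81-fold and 5.40-fold lower. Other genes of the same compartments went both ways and were not taken from a fixed list. Pdia4, Hsp90b1, Fkbp2, Selenof, Selenok and Rabac1 were over 2-fold lower, with ratios of low to high cells from 0.284 for Pdia4 to 0.405 for Fkbp2. Sec61b, Srp14, Srp9, Serp1, Ost4, Sec61g and Spcs1 were within 2-fold, with ratios from 0.814 for Spcs1 to 1.37 for Sec61b. Low counts such as those of Pdia3 and Calr moved with the barcodes used. Kcnj13 was 15.4-fold lower among unshared sequences and 4.69-fold without suffix 1. Atp1b1 was 8.34-fold lower without suffix 1 and had no UMI in the low cells without suffix 6. Pdia3 was 18.9-fold lower among unshared sequences and 19.7-fold without suffix 5, while Calr had no UMI in the low cells among unshared sequences and was 16.5-fold lower without suffix 5. Tmed10 had none in the low cells without suffix 1, and Sec62 was 8.50-fold lower without suffix 6. Over all cells, Calr and Pdia3 had 2 UMIs each in the low cells, with 95% intervals of the ratio from 0.0128 to 0.394 and from 0.0111 to 0.341.

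The mitochondrially encoded genes were also lower, all 8 that could be compared. Their whole list summed to 13365 against 50829 CPM, or 3.80-fold lower. mt-Co1 was 5.33-fold lower and mt-Co3 4.24-fold. The nuclear-encoded mitochondrial genes did not follow: none of the 39 compared differed by 2-fold. Their whole list summed to 86250 CPM in the low and 75139 CPM in the high cells. Ciliary genes did not follow either, with none of the 9 compared at least 2-fold lower and 2 higher. The whole ciliary list summed to 11326 against 8495 CPM. Chchd10 (1.44-fold higher in the low cells, 1.23 to 1.68), Calml4 (1.21-fold, 0.902 to 1.61), Msx1 (1.01-fold, 0.626 to 1.56), Hopx (0.985-fold, 0.720 to 1.32), Car2 (1.16-fold, 0.903 to 1.49) and Malat1 (0.951-fold, 0.544 to 1.57) were within 2-fold. Malat1 had a ratio of 0.552 without suffix 6. The highest ratios in the low cells were 3.34 for Rraga (2.19 among unshared sequences) and 2.93 for Eif3e.

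The sets differed in depth once Ttr or shared sequences were left out. Median UMIs were 1099 in the low and 1047 in the high cells, or 953 and 596 without Ttr, and among unshared sequences 2360.5 and 1371, or 1982 and 828 without Ttr. Their part in the differences was not tested. Medians of 702 and 435 genes were detected, and the median mitochondrial shares were 1.16 and 3.10%. Among cells of unshared sequence, 12 low and 109 high, 55 of 591 genes (9.31%) were at least 2-fold lower in the low cells and 20 (3.38%) higher, and the ratio of Enpp2 was 0.163 as before. Microglial genes outside the selection summed to 2633 CPM in the low and 5298 CPM in the high cells, and the 6 genes of the selection to 3851 and 7139 CPM, while C1qa alone, with 19 UMIs in the low cells, was 2.22-fold higher there (4.36-fold without suffix 1 and 1.09-fold without suffix 6). Without suffix 1, which held 9 of the 17 low cells, 8 low and 108 high cells remained, of 279 genes 27 were at least 2-fold lower and 16 higher, and the differences were 6.31-fold for Enpp2, 4.13-fold for the secreted list and 3.27-fold for the mitochondrially encoded list. Within suffix 1 they were 6.01-fold, 4.30-fold and 4.08-fold.

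**Figure D5:**
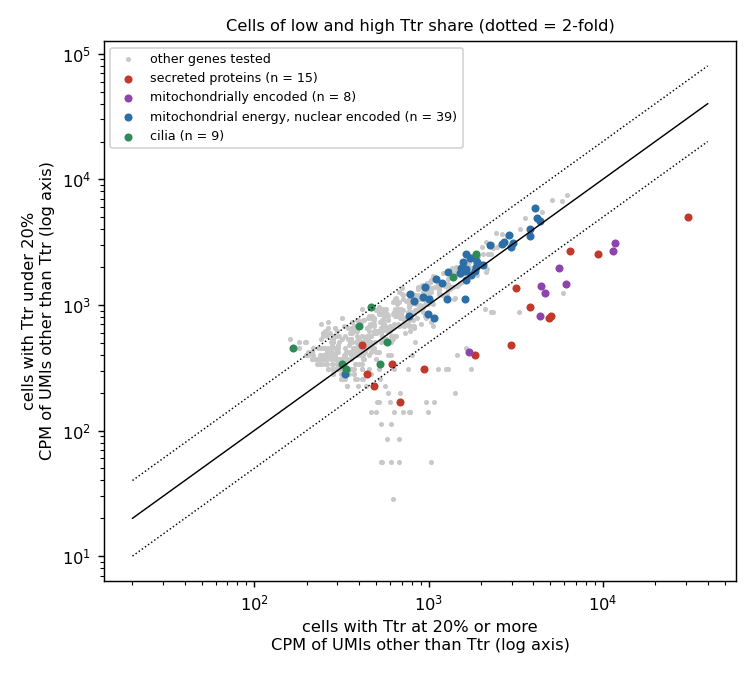
Each point is 1 of 653 genes, with its CPM over UMIs other than Ttr in the 157 cells with Ttr at 20% or more (x, log axis) and in the 17 cells under 20% (y, log axis); the solid line marks equal levels and the dotted lines 2-fold. Secreted (red) and mitochondrially encoded genes (purple) lie mostly below the lower dotted line, nuclear-encoded mitochondrial genes (blue) along the diagonal.

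Depth bands gave smaller differences than the division by Ttr share for Enpp2, Apoe and Cst3, and a larger one for Malat1. In the 81 cells under 1000 UMIs, the 38 from 1000 to under 2000 and the 55 at or above 2000, Enpp2 was at 28827, 28358 and 26619 CPM over UMIs other than Ttr. Apoe was at 12929, 11810 and 6896 CPM and Malat1 at 1027, 914 and 371 CPM in the same order. Cst3, one of the 6 microglial genes of the selection, was at 6492, 6768 and 5710 CPM. Enpp2 and Cst3 varied less over the bands, while Apoe and Malat1 were lowest in the deepest cells.

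Transcripts of the choroid plexus were also found outside the cells. The other barcodes held 28511 Ttr UMIs, 79.9% of them in 105 barcodes with Ttr at 1% or more of UMIs. In the 39363 with less, Ttr was at 55.2 CPM and 11.6% had a UMI of it. By suffix that level was 123, 40.4, 45.7, 24.4, 48.3 and 44.7 CPM, highest with suffix 1, which also held the most choroid plexus-like cells, and lowest with suffix 4. For every 1000 Ttr UMIs these barcodes held 7.86 of Clu and 4.36 of Igfbp2, close to the 7.34 and 4.31 of the cells. They held 23.4 of Enpp2 (95% interval 19.6 to 27.7) against 44.8 in the cells, and 2.27 of Sostdc1 (1.21 to 3.88) against 7.17. Suffix 3 went otherwise, with 49.9 of Enpp2 and 6.80 of Sostdc1 in these barcodes, the latter on 3 UMIs, against 46.5 and 6.87 in its cells. Measured against these 39363 barcodes alone, the ratio was 13092 for Enpp2, 21587 for Sostdc1, 6382 for Clu and 6741 for Igfbp2.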

How the data were processed

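The authors deposited 1 sparse matrix of UMI counts per gene and barcode for 6 libraries (Chromium 3′ v2). Per the study's methods and the submitters' notes, reads were aligned to mm10 with Cell Ranger 3.1 (3.1.0 in the file header), libraries were aggregated into 1 matrix, and Seurat 3.1.5 was used downstream. The libraries were sequenced in 3 batches, which were not tied to suffixes here. No per-sample column was left out (0 columns).

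From the counts, barcodes with over 200 genes and under 5% mitochondrial UMIs were kept (39642 of 40411, or 38751 with the study's further limit of at most 2500 genes, which no choroid plexus-like cell exceeded). No doublet caller was run. Summed UMIs were scaled to CPM with exact Poisson intervals, and CPM ratios have exact conditional binomial 95% intervals. Shares have exact Clopper-Pearson intervals. For shares, barcodes were thinned to 500 UMIs. PCR duplicates were removed by UMI, and intervals cover counting error only. Genes needed 10 expected UMIs in the cells. No p-value was computed, since the counts that chose the cells are those compared and groups were not assigned to suffixes.

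The cells, the gene lists and the limits were chosen with earlier results of these data known. Genes were named by rule: the 5 markers, up to 8 most abundant per list and any list gene at 0, the 25 highest ratios, the 10 most abundant and the 10 lowest ratios. Comparisons were tested on simulated data. Alternatives varied the limits, the totals behind CPM, the minimum, the thinning, the suffixes and, added after the data were seen, the shared sequences and the comparison barcodes. Python 3.11.15, numpy 2.4.6, scipy 1.17.1 and pandas 2.3.3 were used. A few listed genes are not reported here.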

Additional observations from a re-analysis of the deposited data

Results flagged for a closer look

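Barcodes outside the selection also carried choroid plexus transcripts. There were 48 barcodes with Ttr at 5% or more of UMIs that failed the microglial limit, with a median of 1633 UMIs and a median Ttr share of 16.3%, and 34 of them had UMIs of Enpp2, Clu, Igfbp2 and Sostdc1 alike. On the microglial genes 27 of the 48 lay at 3% or more. The 10 nearest the limit of 1% had Malat1 at 791 CPM, while the 27 had Malat1 at 44664 CPM and Ptprc at 281 CPM, with a Ptprc UMI in 15 of 27. Whether those 27 barcodes held more than 1 cell was not tested.

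A further 46 barcodes met the Ttr and microglial limits and failed the mitochondrial limit, with a median of 6.12% of UMIs on mitochondrially encoded genes and a median Ttr share of 45.2%. All 4 other markers were detected in 33 of them. Inside the limit, 31 of the 174 cells lay between 4 and 5%, and just outside it 21 barcodes lay between 5 and 6%. Among the 10 barcodes with at most 200 genes, 8 had Ttr at 5% or more.

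The 3890 barcode sequences found with more than 1 suffix are a feature of the whole matrix. Choroid plexus-like cells of shared sequence had a median of 838 UMIs and those of unshared sequence 1474 UMIs. The source of the sharing was not tested.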

How the results depend on the processing

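The number of cells, 174, stayed at 174 with Ttr at 2% or more and was 172 with 10%, 191 with the microglial limit at 2%, 217 with the mitochondrial limit at 10% and 155 when at least 3 of the 4 other markers replaced Ttr. It was 105 with the microglial limit at 0.5% and 93 with at least 1000 UMIs, and between 116 and 169 with 1 suffix left out. The 281 genes at least 10-fold higher became 85 with at least 50 expected UMIs and 1557 with no minimum, and 183 to 283 with 1 suffix left out (183 without suffix 1). The 788 genes at least 10-fold lower became 506 with the 7 genes of the selection out of the totals, 222 with at least 50 expected UMIs and 9584 with no minimum, and 553 to 761 with 1 suffix left out. Among alternatives chosen after seeing the data, keeping only unshared sequences gave 121 cells, 262 genes higher and 740 lower, keeping 1 barcode per sequence gave 132 cells, 264 and 745, and comparing with barcodes under 1% Ttr gave 284 and 788 genes. The summed secreted list reversed from 0.487 to 2.42 without the 7 genes, a setting that takes Cst3 from the list and Ttr from the totals, and to 1.64 with Cst3 alone out of the list (chosen after seeing the data), and Rdh10 from 2.55 to 0.488 without suffix 6, with values from 0.488 to 3.70 as each suffix was left out. Of 167 named ratios past 2-fold, over 18 settings, 6 genes fell within 2-fold in at least 1 setting (Apoe, Rdx, Vim, Wls, mt-Atp6 and mt-Co3). With the microglial limit at 0.5% the ratios of Enpp2, Clu, Sostdc1 and Igfbp2 were 400, 429, 406 and 333, where the excluded cells join the other barcodes. No paired analysis was possible because the labels tie no suffix to a mouse and no result comes from a test. A single UMI among the cells is worth 2.53 CPM, which limits statements on genes listed with no UMI.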
